A study of Mus musculus with 4 samples.

Results

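Collagen genes were examined on expression arrays of mouse distal colon. Every gene was taken whose symbol is Col, a type number, the letter a and a chain number, and which had a probe set annotated to that gene alone. This gave 42 genes on 82 probe sets, of 18193 genes in all, and each gene was read from its brightest probe set, by mean over all 4 arrays. Of the 42 genes, 27 lay above the median of all probe sets on at least 1 array (7 fibrillar, 6 basement membrane and 14 other types), as did 12177 of all genes. These 27 were compared, and the other 15 are described by their range. Since a gene could be kept through 1 array on which it was high, the 27 are not a neutral sample of the family.

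The arrays came from 4 mice, 1 for each group, so there was 1 array per group and no replicate. The mice were deficient in Adamts12 (KO) or wild type (WT). Adamts12 encodes a secreted metalloprotease. The deleted exons, the strain and any kinship of KO and WT mice are not given in the labels. One KO and one WT mouse drank water with 2% DSS, or dextran sodium sulfate, a sulfated polymer toxic to the epithelial lining of the colon. The series text gives 7 days of DSS and the treatment protocol 8 days, each with 1 more day without it. The other KO and the other WT mouse were untreated. Mice were 8 to 10 weeks old when treatment began, and the RNA was from fragments of distal colon that hold all cell types of the wall. In such bulk tissue, fewer cells of a type and less RNA per cell cannot be told apart.

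Collagens are the main structural proteins of the extracellular matrix, built from 3 chains wound into a triple helix. Fibrillar types form the tensile fibres of the submucosa and lamina propria and are made mostly by fibroblasts. Type IV collagen forms the sheet-like network of basement membranes under epithelium and around vessels and muscle cells, and other types bind fibrils, form filaments or span the cell membrane. In colitis, collagen is both degraded and laid down as the wall heals.

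Some facts of the arrays touch all that follows. The brighter of 2 Adamts12 probe sets read 1.41 on the KO DSS array and 2.18 on the WT DSS array, and 1.42 and 2.18 on the untreated KO and WT arrays. It was dim, at percentile 15.6 to 32.6 of its arrays, and checks the genotype labels only weakly. All 10 epithelial marker genes were above the array median on at least 1 array, with mean log2 values of 10.6, 10.7, 10.9 and 10.8 on the KO DSS, WT DSS, untreated KO and untreated WT arrays. The untreated KO array stood apart in genes of position along the gut, in lists written with that result known. Hoxb13, a homeobox gene of the hindgut, read 2.48 there, against 8.40, 7.84 and 9.47 on the KO DSS, WT DSS and untreated WT arrays. Hoxd13, another, read 3.36 there, against 7.20, 4.22 and 8.82, and thus was also low with DSS in WT. The 9 markers of posterior gut, both genes among them, averaged 3.68 on the untreated KO array, against 6.57, 6.15 and 7.81. The 8 markers of more proximal gut averaged 7.99 there, against 2.68, 3.51 and 3.09. For counts and lists that use the untreated KO array, the KO colon with DSS is therefore also set against the untreated WT colon.

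The KO colon with DSS had the highest level of all 7 fibrillar collagen genes and of 16 of the 27 collagen genes, while the WT colon with DSS had the highest level of none. Of all genes, 22.7% had their highest level on each of these arrays, and 28.8% on the untreated KO array. After quantile normalization the 16 were 14, and the untreated KO colon had the highest level of 12 collagen genes in place of 10. Against the untreated KO colon, 8 of the 27 were 2-fold higher or more in the KO colon with DSS, where 10.7% of all genes were, and 2 were at least 2-fold lower, where 6.67% were. In WT mice 1 was higher with DSS, where 5.82% of all genes were, and 1 lower, where 4.94% were. The 8 were Col1a1, Col5a1, Col5a2, Col5a3, Col4a1, Col4a2, Col18a1 and Col6a3. Col18a1 was also the gene higher in WT. Col14a1 was 2-fold lower in both genotypes, and Col4a6 had a difference of -1.23 in KO and 0.08 in WT. With the untreated WT array in place of the untreated KO array, a comparison chosen after the data were seen, 5 of 27 were at least 2-fold higher in the KO colon with DSS, where 6.11% of all genes were. These were Col4a1, Col4a2, Col5a3, Col18a1 and Col8a1, and 1, Col14a1, was at least 2-fold lower, where 5.03% of all genes were.

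**Figure D1:**
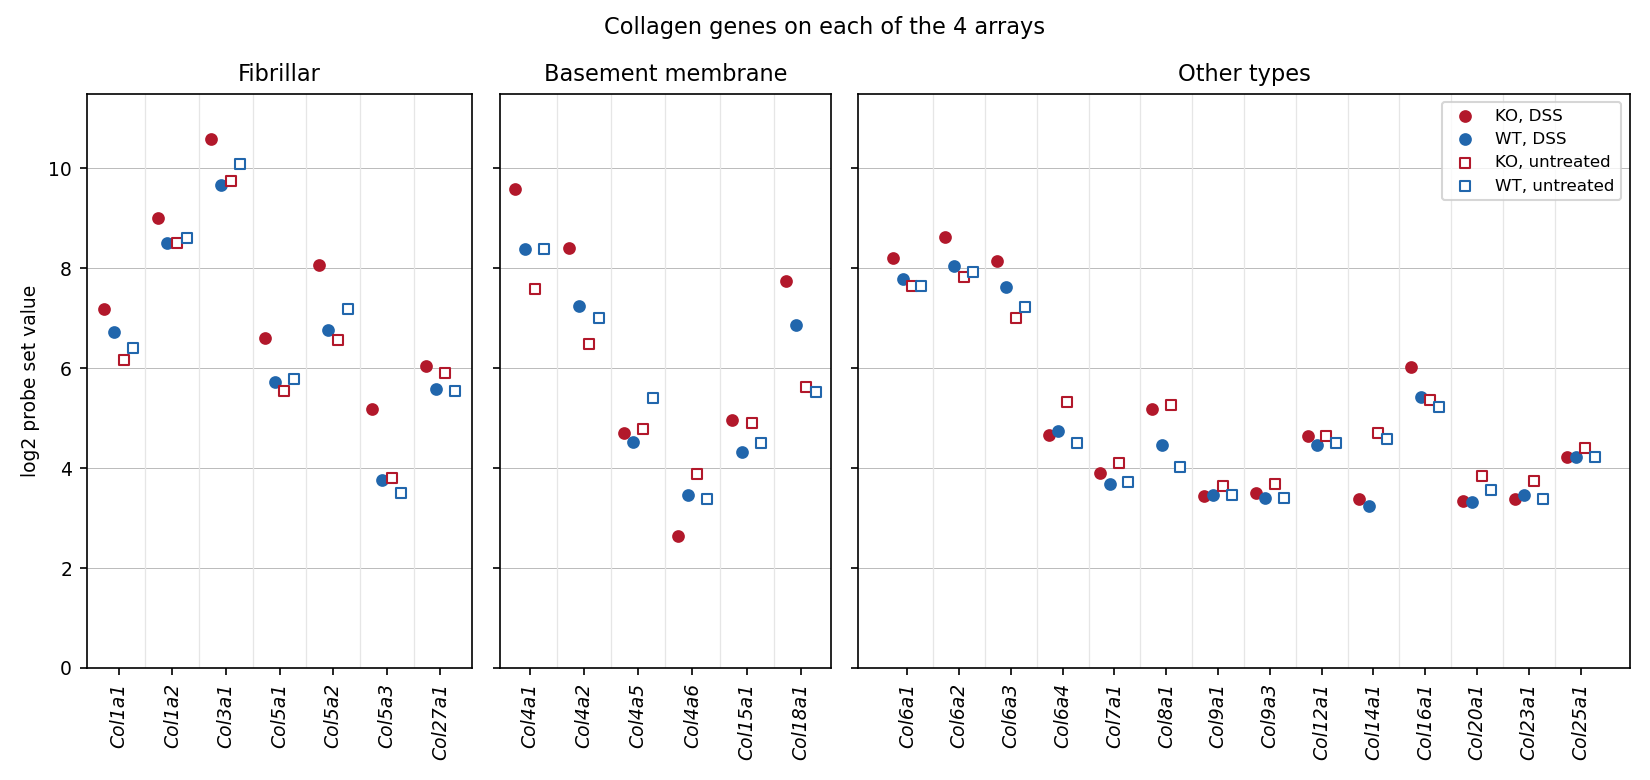
Log2 probe set values of the 27 collagen genes kept, 1 point per array and no error bar because each group is 1 array, with filled circles for DSS, open squares for untreated, red for KO and blue for WT. The KO DSS point is the top one for all 7 fibrillar genes, and levels of different genes are not comparable because their probe sets differ.

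Type I collagen, the main fibrillar collagen of the gut wall, has chains encoded by Col1a1 and Col1a2. Col1a1 had log2 values of 7.19 in the KO and 6.72 in the WT colon with DSS, against 6.17 in the untreated KO and 6.41 in the untreated WT colon. Col1a2 read 9.01 in KO and 8.50 in WT with DSS, against 8.50 in the untreated KO and 8.60 in the untreated WT colon. Both were highest on the KO DSS array, while the other 3 arrays lay within 0.55 of each other for Col1a1 and 0.10 for Col1a2. Col3a1, whose protein forms fibrils together with type I in distensible tissue, read 10.59 in KO and 9.66 in WT with DSS, against 9.74 in the untreated KO and 10.09 in the untreated WT colon. Its DSS difference was 0.85 in KO and -0.43 in WT, so the 2 genotypes differed in opposite directions on these arrays.

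Type V collagen starts and limits the growth of type I fibrils, and its 3 chains are encoded by Col5a1, Col5a2 and Col5a3. Col5a2 had a log2 value of 8.06 in KO and 6.76 in WT with DSS, against 6.56 in the untreated KO and 7.18 in the untreated WT colon. Its DSS difference was 1.5 in KO, a 2.83-fold higher level, and -0.42 in WT. Col5a3 read 5.18 in KO and 3.77 in WT with DSS, against 3.80 in the untreated KO and 3.50 in the untreated WT colon, so that 1 array stood above 3 that were within 0.30 of each other. Col5a1 read 6.60 in KO and 5.73 in WT with DSS, against 5.55 in the untreated KO and 5.79 in the untreated WT colon. All 3 chains were thus past 2-fold with DSS in KO, and within 0.42 of the untreated level in WT. The 2 dimmer probe sets of Col5a1 gave 1.34 and 0.55 in KO and 0.14 and 0.46 in WT. Against the untreated WT colon, the KO colon with DSS was past 2-fold for Col5a3 alone of the 3 chains (1.68). Col5a2 was at 0.88 and Col5a1 at 0.81 in that comparison. Col27a1, a fibrillar gene known mainly from cartilage, read 6.05 in KO and 5.58 in WT with DSS, against 5.91 in the untreated KO and 5.54 in the untreated WT colon. On this probe set it followed genotype more than treatment, with both KO arrays above both WT arrays. Its dimmer probe set read 5.15 in KO and 4.54 in WT with DSS, and 4.53 and 4.26 without. That order of the arrays was thus not seen on it.

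As a class, the 7 fibrillar genes had a median DSS difference of 1.02 in KO and -0.06 in WT, beside 0.06 and -0.01 over all genes. All 7 were above 0 in KO, and 3 of 7 in WT, where 6522 and 5908 of all 12177 genes were. Col1a1 (1.02) and Col5a1 (1.05) were just past the 2-fold threshold in KO, and Col3a1 (0.85) and Col6a2 (0.80) just short of it. After quantile normalization, where the median of all genes was -0.04, Col1a1, Col5a1 and Col6a3 were at 0.90, 0.93 and 0.98, which left 5 of the 27 at least 2-fold higher in place of 8, and all 7 fibrillar genes were still above 0. Against the untreated WT colon, the 7 genes had a median of 0.78 in the KO colon with DSS, beside 0.02 over all genes. All 7 were above 0, but 1 of 7 was at least 2-fold higher, where 6.11% of all genes were. The other 4 fibrillar genes, Col2a1, Col11a1, Col11a2 and Col24a1, were under the median of every array.

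RefSeq promoter windows, which run from 250 bases before to 50 after the annotated start, were available for 33 of the 42 genes and 22 of the 27 (assembly GRCm38.p6). Of the 5 fibrillar genes kept that have one, a gene each of types I, III and V is shown as an example. Capitals mark each match on either strand to CCAAT, the box bound by NF-Y, to GGGCGG, the GC box bound by Sp1-family factors, to TATAAA, the TATA box, or to TGANTCA, the AP-1 motif. None of these matches overlapped another motif in the windows shown.
Col1a2, chr6:4505368-4505667, plus strand: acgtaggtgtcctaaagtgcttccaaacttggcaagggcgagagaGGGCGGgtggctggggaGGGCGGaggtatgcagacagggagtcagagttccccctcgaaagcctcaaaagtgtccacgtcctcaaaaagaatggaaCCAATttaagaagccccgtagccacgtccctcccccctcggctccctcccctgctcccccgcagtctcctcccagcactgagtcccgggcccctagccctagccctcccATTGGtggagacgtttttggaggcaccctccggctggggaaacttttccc
Col3a1, chr1:45311288-45311587, plus strand: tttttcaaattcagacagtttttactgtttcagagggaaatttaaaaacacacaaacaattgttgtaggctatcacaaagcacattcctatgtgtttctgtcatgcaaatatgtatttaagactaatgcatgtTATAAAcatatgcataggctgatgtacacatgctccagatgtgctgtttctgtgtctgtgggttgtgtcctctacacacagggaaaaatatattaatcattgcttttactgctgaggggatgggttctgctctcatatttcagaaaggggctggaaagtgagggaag
Col5a3, chr9:20815018-20815317, minus strand: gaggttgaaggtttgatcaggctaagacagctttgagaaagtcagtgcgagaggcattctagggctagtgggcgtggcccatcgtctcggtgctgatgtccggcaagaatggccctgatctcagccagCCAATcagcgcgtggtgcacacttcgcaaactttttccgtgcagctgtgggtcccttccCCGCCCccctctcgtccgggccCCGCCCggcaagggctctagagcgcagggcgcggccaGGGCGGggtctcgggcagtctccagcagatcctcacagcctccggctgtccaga
The Col1a2 window holds 2 CCAAT and 2 GGGCGG matches and that of Col5a3 1 and 3, whereas that of Col3a1 holds 1 TATAAA match and none of the other 3 motifs. The windows of Col5a1 and Col27a1, not shown, hold 2 GGGCGG matches each and none of the other 3 motifs. Among 32851 windows of all genes, 37.4% hold CCAAT, 35.7% GGGCGG, 13.6% TATAAA and 7.81% TGANTCA. Of the 25 windows of the collagen genes kept, 11 hold CCAAT (44.0%), 17 GGGCGG (68.0%), 1 TATAAA (4.0%) and 1 TGANTCA (4.0%). A match describes the letters alone.

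Among basement membrane genes, the 2 chains of the common type IV network differed alike. Col4a1 had log2 values of 9.58 in the KO and 8.39 in the WT colon with DSS, against 7.58 in the untreated KO and 8.39 in the untreated WT colon. Col4a2 read 8.40 in KO and 7.24 in WT with DSS, against 6.49 in the untreated KO and 7.01 in the untreated WT colon. Both were highest on the KO DSS array and lowest on the untreated KO array. The level with DSS was 4.0-fold and 3.76-fold that of the untreated colon in KO, and 1.0-fold and 1.17-fold in WT. Against the untreated WT colon, the KO colon with DSS was higher by 1.19 and 1.39 on the log2 scale.

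The 2 genes lie head to head, and their promoter windows are shown because the annotated starts, on opposite strands, are 21 bases apart and the windows share 78 bases. The window of Col18a1 shown is the upstream one of 2, and capitals mark the same motifs as above.
Col4a1, chr8:11312777-11313076, minus strand: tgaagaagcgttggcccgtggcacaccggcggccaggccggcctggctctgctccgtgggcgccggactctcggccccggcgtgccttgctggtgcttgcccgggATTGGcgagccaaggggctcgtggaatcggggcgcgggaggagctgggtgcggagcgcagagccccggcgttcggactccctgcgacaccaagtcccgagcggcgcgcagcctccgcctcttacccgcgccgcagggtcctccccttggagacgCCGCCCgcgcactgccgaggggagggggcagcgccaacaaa
Col4a2, chr8:11312555-11312854, plus strand: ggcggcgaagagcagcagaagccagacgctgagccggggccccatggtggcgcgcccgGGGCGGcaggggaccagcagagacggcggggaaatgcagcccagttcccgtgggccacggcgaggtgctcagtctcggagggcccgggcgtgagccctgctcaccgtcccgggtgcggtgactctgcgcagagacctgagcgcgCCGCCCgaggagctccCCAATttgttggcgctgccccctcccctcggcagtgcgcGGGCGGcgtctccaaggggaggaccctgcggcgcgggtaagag
Col18a1, chr10:77166481-77166780, minus strand: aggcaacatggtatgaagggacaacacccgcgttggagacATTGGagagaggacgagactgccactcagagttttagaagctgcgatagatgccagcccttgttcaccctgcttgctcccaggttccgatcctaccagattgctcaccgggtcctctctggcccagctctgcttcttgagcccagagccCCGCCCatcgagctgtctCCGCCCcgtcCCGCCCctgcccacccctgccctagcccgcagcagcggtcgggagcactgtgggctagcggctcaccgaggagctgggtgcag
The last GGGCGG match of the Col4a2 window is the CCGCCC of the Col4a1 window read on the other strand. The Col18a1 window holds 3 GGGCGG matches before the start and 1 CCAAT match, and its second window holds none of the 4 motifs.

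Col18a1, whose protein sits in epithelial and vascular basement membranes and releases endostatin, was higher with DSS in both genotypes. It read 7.74 in KO and 6.87 in WT with DSS, against 5.63 in the untreated KO and 5.53 in the untreated WT colon, so both DSS arrays lay above both untreated arrays. The level with DSS was 4.32-fold the untreated one in KO and 2.53-fold in WT. Its second probe set gave 1.98 in KO and 1.51 in WT on the log2 scale, beside 2.11 and 1.34. The related Col15a1, also of the basement membrane zone, read 4.96 in KO and 4.33 in WT with DSS, against 4.91 in the untreated KO and 4.51 in the untreated WT colon. It followed genotype, with both KO arrays above both WT arrays.

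Col4a5 and Col4a6 encode chains that pair in a distinct type IV network, known from smooth muscle, and are also annotated head to head, with starts 1343 bases apart. Col4a6 read 2.65 in KO and 3.47 in WT with DSS, against 3.88 in the untreated KO and 3.39 in the untreated WT colon, and was lowest on the KO DSS array, where Col4a1 and Col4a2 were highest. Its dimmer probe set, under the median of every array, gave -0.32 in KO and -0.24 in WT with DSS, beside -1.23 and 0.08. Col4a5 read 4.70 in KO and 4.52 in WT with DSS, against 4.79 in the untreated KO and 5.41 in the untreated WT colon. Its highest value was in the untreated WT colon, where the 10 smooth muscle markers also had their highest mean (8.59, against 8.08, 7.93 and 7.79 on the KO DSS, WT DSS and untreated KO arrays). Col4a6 was instead highest in the untreated KO colon, where that mean was lowest. So was the dimmer Col4a5 probe set, at 4.04 against 3.56 in the untreated WT colon. The part of the smooth muscle markers in the Col4a5 values was not tested. The 2 Col4a5 probe sets disagreed in sign for KO minus WT, with -0.62 and 0.48 without DSS. Col4a3 and Col4a4, chains best known from kidney, were under the median of every array. Over the 6 genes kept, the median DSS difference was 0.98 in KO and 0.04 in WT, and 0.91 and 0.04 over the 4 type IV chains, with members on both sides of 0. That KO median rests on which genes enter: it was 2.00 with the filter at the 75th percentile, 1.77 as a mean over probe sets, 0.05 with Col7a1 and Col17a1 added, and -0.01 with no filter. Against the untreated WT colon, the 6 genes had a median of 0.82 in the KO colon with DSS. Of these, 3 were at least 2-fold higher, where 6.11% of all genes were. Over the 4 type IV chains that median was 0.24.

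**Figure D2:**
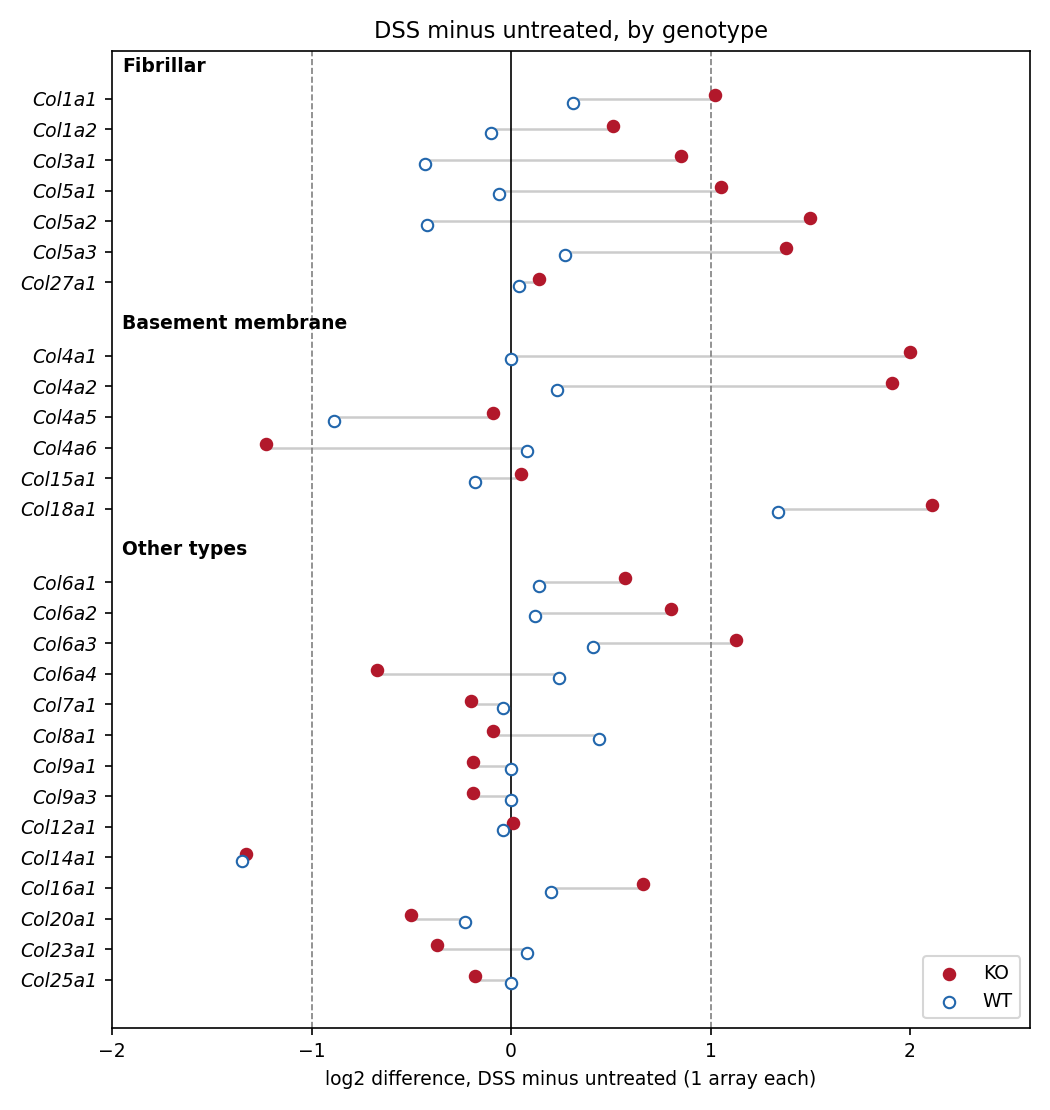
Log2 difference of DSS minus untreated for each collagen gene kept, filled red for KO and open blue for WT, each from 1 pair of arrays, with dashed lines at 2-fold. Col18a1 lies past 2-fold on the right and Col14a1 on the left in both genotypes, while Col4a1, at 2.00 in KO, is at 0.00 in WT.

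Type VI collagen forms beaded filaments around cells from chains encoded by Col6a1, Col6a2 and Col6a3. Col6a3 read 8.14 in KO and 7.63 in WT with DSS, against 7.01 in the untreated KO and 7.22 in the untreated WT colon. Both DSS arrays were above both untreated arrays, by 1.13 in KO and 0.41 in WT. Col6a1 and Col6a2 were higher with DSS by 0.57 and 0.80 in KO and by 0.14 and 0.12 in WT, under 2-fold. Col6a4, another gene of the type VI family, was lower in KO, at -0.67, and was at 0.24 in WT.

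Col14a1 encodes a fibril-associated collagen that binds the surface of type I fibrils. It had log2 values of 3.38 in the KO and 3.24 in the WT colon with DSS, against 4.71 in the untreated KO and 4.59 in the untreated WT colon. Both DSS arrays lay below both untreated arrays, and the DSS difference was almost equal, -1.33 in KO and -1.35 in WT. Both DSS values were under the medians of their arrays (3.43 in KO and 3.42 in WT). The gene was thus kept through the untreated arrays alone. A dimmer probe set, under the median of every array, gave -1.0 and -0.76, and the dimmest, at 2.16 to 2.28 on all arrays, gave -0.06 and -0.12. Col8a1, which encodes a short-chain collagen of vessel walls, read 5.18 in KO and 4.47 in WT with DSS, against 5.27 in the untreated KO and 4.03 in the untreated WT colon. Both KO arrays were above both WT arrays.

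The other 11 genes of these types were under 2-fold apart in each of the 4 comparisons, with a largest range over the arrays of 0.83 (Col6a4) and a median range of 0.41. They include Col7a1 of the anchoring fibrils, the fibril-associated Col12a1 and Col16a1, and the membrane-spanning Col23a1 and Col25a1. Of all 14 genes of other types kept, 9 had their highest value on the untreated KO array, where 28.8% of all genes did. The 15 genes under every array's median read between 0.55 and 3.09, with a largest range of 0.69.

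Loss of Adamts12 was compared with WT separately with and without DSS. With DSS, 4 of the 27 genes were at least 2-fold higher in KO, where 4.18% of all genes were, and 0 were 2-fold lower, where 1.21% were. These were Col5a3 (1.41), Col5a2 (1.30), Col4a1 (1.19) and Col4a2 (1.16). All 7 fibrillar genes were above 0, where 5508 of all 12177 genes were, with a median of 0.87, beside -0.02 over all genes. Col3a1 (0.93), Col5a1 (0.87) and Col18a1 (0.87) were just short of 2-fold. Over the 6 basement membrane genes the median was 0.75, with Col4a6 (-0.82) the one below 0, and over the 14 other types it was 0.16. Neither array of this comparison was the untreated KO array, but the DSS arrays also differed in some genes of gut position. Hoxd13 read 7.20 with DSS in KO and 4.22 in WT, and the proximal marker Fabp2 read 4.51 and 8.07. KO minus WT had a median of 0.33 over the 9 posterior markers, with 5 above 0 and 4 below. Over the 8 proximal ones it was -0.625, with 2 above 0 and 6 below. The part of gut position in these collagen differences was not tested.

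Without DSS, 1 gene was at least 2-fold higher in KO, where 3.42% of all genes were, and 0 were lower, where 5.95% were. It was Col8a1 (1.24), whose second probe set gave 1.66. The fibrillar median was -0.24, with 5 of 7 below 0 and Col5a2 (-0.62) the lowest. That of basement membrane genes was -0.21, with Col4a1 at -0.81, or -0.15 on its second probe set. The 14 other types had a median of 0.18, with 11 above 0. Of all 12177 genes, 5879 were above 0 and 6169 below. After quantile normalization the fibrillar and basement membrane medians were -0.12 and -0.10, with 4 of 7 and 3 of 6 genes below 0.

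**Figure D3:**
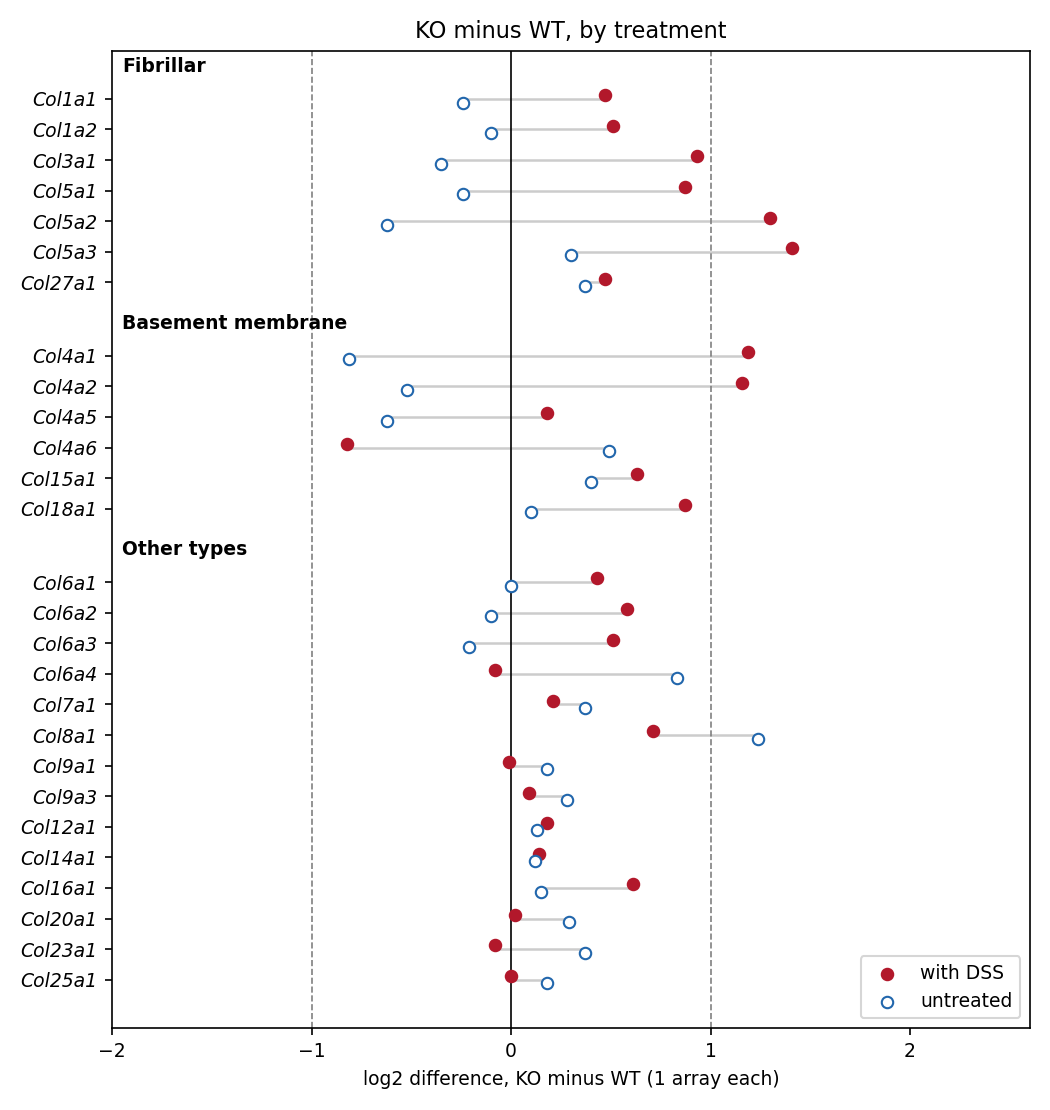
Log2 difference of KO minus WT for each collagen gene kept, filled red with DSS and open blue without, each from 1 pair of arrays, with dashed lines at 2-fold. Col5a3, Col5a2, Col4a1 and Col4a2 are past 2-fold with DSS, and Col8a1 without it.

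The difference between the DSS effects, KO minus WT, was at least 2-fold above 0 for 6 of the 27 genes, where 12.3% of all genes were, and 2-fold below 0 for 1, where 5.91% were. The 6 were Col4a1 (2.00), Col5a2 (1.92), Col4a2 (1.68), Col3a1 (1.28), Col5a1 (1.11) and Col5a3 (1.11), and the 1 was Col4a6 (-1.31). This quantity uses all 4 arrays and has no residual degree of freedom, so it was not tested. After quantile normalization, which put the median of all genes at -0.10 in place of 0.0, 5 were above and 2 below, and 6 of 7 fibrillar genes in place of 7 were above 0.

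A test over the 4 arrays was possible for effects common to both levels of the other factor. In limma's additive model, where an unequal DSS effect in KO and WT counts as error, with 1 degree of freedom left, 0 of the 27 genes passed an adjusted p of 0.05 for DSS (0.0% of all genes did) or for KO against WT (0.0%). At an unadjusted p under 0.05 for DSS there were 2 of 27, where 11.8% of all genes were. One was higher, where 7.64% of all genes were, and one lower, where 4.17% were. Col18a1 had a log2 difference of 1.73 ± 0.30 (SE, limma adjusted p = 0.364), higher in both genotypes, and Col14a1 of -1.34 ± 0.27 (limma adjusted p = 0.364), lower in both. Col4a1, with 1.00 ± 0.57 (limma adjusted p = 0.584), shows how unequal effects widen the error. For KO against WT, 1 of 27 had an unadjusted p under 0.05, where 1.45% of all genes did (0.673% higher and 0.772% lower). It was Col8a1, with 0.98 ± 0.28 (limma adjusted p = 1.00), higher in KO at both treatments.

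Of the 27 genes, 13 had another probe set above the median of at least 1 array. In the DSS comparison within KO, the 2 brightest probe sets had the same sign in 13 of 13 genes, and in WT in 10 of 13. The dimmer one gave the difference of larger size in 10 of 13 genes in KO. Col3a1 was higher with DSS in KO by 0.85 on its brightest and 2.08 on its second probe set, Col1a2 by 0.51 and 1.30, Col5a2 by 1.5 and 2.03 and Col1a1 by 1.02 and 1.46. For Col4a1 it was the brightest that gave more, 2.00 beside 1.54. For KO minus WT with DSS, 11 of 13 had the same sign, and Col12a1 was at 0.18 on its brightest and 1.37 on its second. With the second probe sets, a choice added after the data were seen, the median DSS difference in KO of the 6 fibrillar genes with both was 1.40, beside 0.94 on their brightest ones. For all 13 genes it was 1.30 beside 0.80. The count of 2-fold differences in this family thus depends on the probe set.

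**Figure D4:**
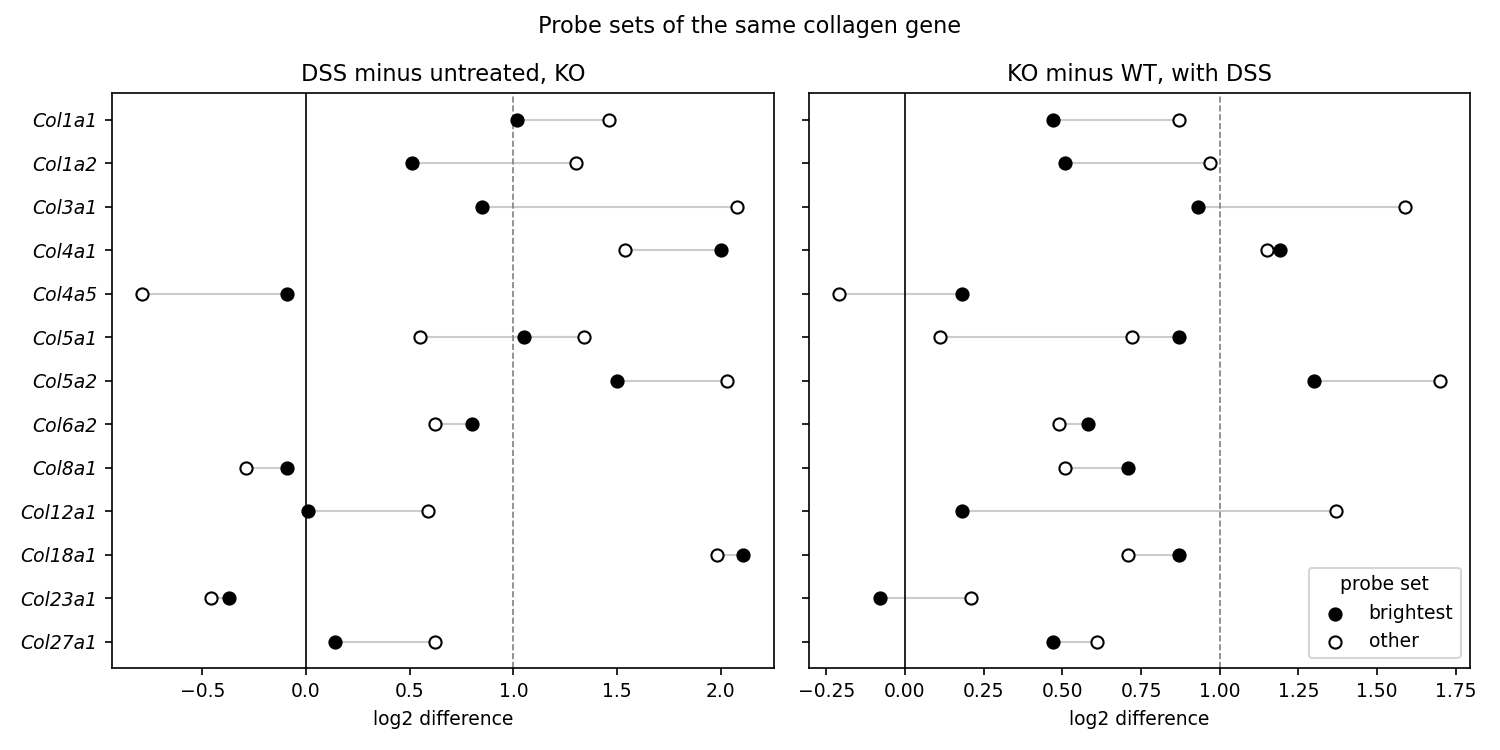
Log2 differences from each probe set above the median of at least 1 array, for the 13 collagen genes with more than 1, with the probe set of the highest mean filled and the others open. In the left panel (DSS minus untreated in KO) Col3a1 and Col1a2 cross the dashed 2-fold line only on the dimmer probe set.

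Genes that make, assemble and bind collagen were then examined in lists written with earlier results of these data known. The lists passed the same filter, so here too a gene could be kept through 1 array on which it was high. The shares of all genes that apply to their counts are those given above: for at least 2-fold higher, 10.7% with DSS in KO, 5.82% with DSS in WT and 6.11% for KO with DSS against the untreated WT colon, and for lower, 6.67%, 4.94% and 5.03%. Above 0 were 6522 of all 12177 genes with DSS in KO, 5908 with DSS in WT and 5508 for KO minus WT with DSS. Of the 15 genes kept that modify or fold procollagen, 3 in KO and 0 in WT were past 2-fold upward with DSS, with medians of 0.32 and 0.13. Against the untreated WT colon, 1 was past it in the KO colon with DSS, with a median of 0.52. Serpinh1, the collagen chaperone HSP47, was at 1.36 in KO and 0.40 in WT, and at 1.02 in KO against the untreated WT colon. Plod2, a lysyl hydroxylase, was at 1.62 in KO and -0.15 in WT (0.85 against the untreated WT colon), and P3h2, a prolyl 3-hydroxylase, at 1.03 and 0.02 (0.64). Plod3, another lysyl hydroxylase, was at 0.35 and 0.70 (0.66).

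Of the 3 cross-linking oxidases kept, Loxl1 was at 1.97 in KO and -0.03 in WT with DSS (1.22 against the untreated WT colon), Lox at 1.17 and 0.39 (1.47), and Loxl3 at -0.08 and 0.35 (0.66). The 2-fold threshold was thus passed by Loxl1 and Lox in KO against either untreated colon. Of the 3 genes of propeptide removal, Pcolce2 and Pcolce, which encode enhancers of the C-terminal cut, differed in the genotype with the larger value. Pcolce2 was at 0.91 in KO and 1.47 in WT (2.09), Pcolce at 1.16 and -0.26 (0.52), and the protease gene Bmp1 at -0.02 and -0.12 (0.15). Pcolce2 was above the array median on the KO DSS array alone, where it read 3.87. The 7 genes kept from the procollagen secretion list had medians of -0.09 in KO and -0.25 in WT (-0.35 against the untreated WT colon). Creb3l1, a transcription factor of secretory cells, was below 0 in both, at -1.10 and -0.82 (-1.49). So was Mia3, a cargo receptor for procollagen, at -0.76 and -0.20 (-0.42), while Sar1a was at 0.24 and 0.12 (0.17). Tango2, which was on the list but has no established part in procollagen export, was at -0.27 and -0.70 (-0.66).

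Genes of matrix proteins that bind fibrils were above 0 with DSS in 10 of 12 kept in KO and in 2 of 12 in WT. In KO, 6 were past 2-fold upward and 1 downward, with a median of 0.97, and in WT 1 upward and 2 downward, with a median of -0.50. Against the untreated WT colon, 3 were past it upward and 1 downward in the KO colon with DSS, with a median of 0.41. Thbs1 (thrombospondin 1) was the one past 2-fold upward in both genotypes, at 2.14 in KO and 1.15 in WT (2.87 against the untreated WT colon). Tnc (tenascin C) was at 1.92 in KO and 0.35 in WT (1.72), and Fn1 (fibronectin) at 1.49 and -0.44 (0.21). Dcn (decorin), a proteoglycan on type I fibrils, was at 1.39 and -0.98 (1.04). Ogn (osteoglycin) was below 0 in both, at -1.24 and -2.07 (-1.76), as Col14a1 was, and Aspn (asporin) was at 0.51 and -1.17 (-0.35).

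Of 10 basement membrane partners of type IV collagen, 2 in KO and 0 in WT were past 2-fold upward with DSS, and 1 in each downward, with medians of 0.38 and -0.24. Against the untreated WT colon, 1 was past it upward and 0 downward in the KO colon with DSS, with a median of 0.315. Lamb1, a laminin chain, was at 1.51 in KO and -0.33 in WT (0.73 against the untreated WT colon), and Nid1, which links laminin to type IV collagen, at 1.40 and -0.10 (1.23). Agrn (agrin) was at -1.33 and -0.22 (-0.31), and Lama2, a laminin chain of muscle, at -0.51 and -1.13 (-0.51). Between the DSS arrays, KO minus WT had a median of 0.84 for the fibril-binding list, where 12 of 12 were above 0, and 0.55 for the basement membrane partners, where 9 of 10 were.

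Among 7 collagen receptor genes kept, 2 in KO and 0 in WT were past 2-fold upward with DSS, and 1 in KO against the untreated WT colon. The medians were 0.14, -0.01 and 0.31. With DSS in KO, 4 were above 0 and 3 below, and in WT 3 above and 4 below. Ddr2, a receptor tyrosine kinase of mesenchymal cells, was at 1.37 in KO and -0.01 in WT (1.10 against the untreated WT colon), and the integrin gene Itga1 at 1.73 and -0.34 (0.31). Mrc2, which takes up collagen for degradation, was at 0.52 and 0.27 (0.95), and Lair1, an inhibitory receptor of leukocytes, at -0.97 and -0.46 (-0.21). Lair1 was kept through the untreated KO array alone, where it read 3.47 against an array median of 3.46.

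Of 9 genes of collagen degradation, 4 in KO and 2 in WT were past 2-fold upward with DSS, with medians of 0.95 and 0.50, and 4 in KO against the untreated WT colon, with a median of 0.75. Mmp3 (stromelysin 1) was at 6.63 in KO and 3.66 in WT (6.41 against the untreated WT colon), and the collagenase gene Mmp13 at 5.40 and 1.39 (5.06), so both were past 2-fold in both genotypes. The neutrophil collagenase gene Mmp8 was at 1.24 and 0.72 (2.26), and the membrane collagenase gene Mmp14 at 1.34 and 0.50 (1.14). Mmp8 was dim, and was kept through the KO DSS array alone. It read 3.70 there, and 2.16, 2.46 and 1.44 on the WT DSS, untreated KO and untreated WT arrays. Fap, which encodes a peptidase of fibroblasts, was at -0.88 and -0.97 (-0.92).

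Of 12 genes of TGF-beta signalling, a main inducer of collagen transcription, 3 in KO and 0 in WT were past 2-fold upward with DSS, with medians of 0.78 and -0.15, and 2 in KO against the untreated WT colon, with a median of 0.42. The target gene Ccn2 was at 2.18 in KO and -0.71 in WT (1.07 against the untreated WT colon), the receptor gene Tgfbr2 at 1.16 and 0.39 (1.09), and Smad4, which carries the signal to the nucleus, at 1.39 and 0.33 (0.52). Tgfbi, a matrix protein induced by TGF-beta, was at 0.83 and 0.03 (0.97).

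Markers of cell types of the wall differed between the arrays too. Of 10 fibroblast markers kept of 12, 3 passed 2-fold upward with DSS in KO and 1 against the untreated WT colon. Pdgfrb was at 2.49 in KO and -0.12 in WT (1.26 against the untreated WT colon), Pdgfra at 1.41 and 0.16 (0.75) and Vim at 1.02 and -0.88 (0.36), while Mfap5 was at -0.73 and -0.76 (-0.53) and Cd34 at -0.01 and -1.36 (-0.29). Mfap5 was kept through the untreated KO array alone, where it read 3.52 against an array median of 3.46. The mean log2 level of the 10 fibroblast markers was 6.27 in KO and 5.59 in WT with DSS, against 5.68 in the untreated KO and 5.95 in the untreated WT colon. The fibrillar genes had the same highest array. The 9 endothelial markers averaged 4.68 and 4.08 with DSS and 3.97 and 4.25 without, in KO and WT, with the same highest and lowest arrays as Col4a1 and Col4a2. The 3 mesothelial markers averaged 5.48 and 4.07 with DSS and 4.48 and 4.87 without, in KO and WT. Of these, Msln was above the array median on the KO DSS array alone, where it read 3.85. The 6 enteric neuron and glia markers averaged 4.22 and 3.84 with DSS and 3.62 in both untreated colons, and the 4 adipocyte markers 4.44 and 5.21 with DSS and 4.99 and 4.32 without. The 9 leukocyte markers averaged 7.35 and 5.81 with DSS and 5.03 and 5.49 without, so they too had the highest and lowest arrays of Col4a1 and Col4a2. Mesothelial and enteric neuron and glia markers were also highest on the KO DSS array. A highest mean on that array was thus not particular to fibroblast or endothelial markers. Like Msln, the glia marker Gfap (4.08 there) and the endothelial markers Cdh5 (3.96) and Tie1 (3.46) were above the array median on that array alone. For such genes the filter helped to fix which array was highest. Smooth muscle markers were lower in the untreated KO than the untreated WT colon in 10 of 10 genes, where 6169 of all 12177 genes were, with a median of -0.78. Housekeeping genes averaged 10.2 and 10.1 with DSS and 10.1 and 10.0 without. The part of these cell markers in the collagen values was not tested.

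**Figure D5:**
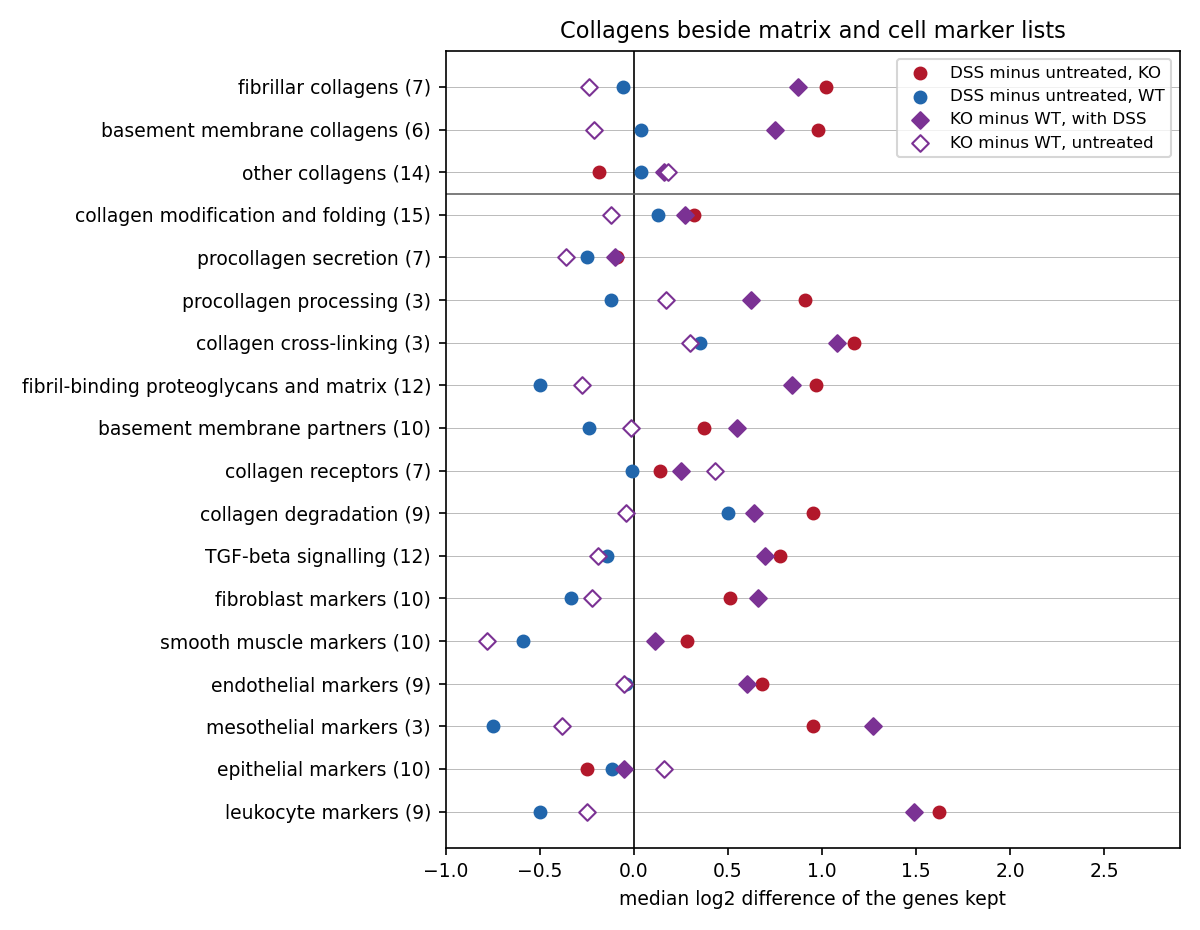
Median log2 difference of the collagen classes (above the line) and of matrix and cell marker lists (below it), with the number of genes kept in brackets and 1 point per comparison. For fibrillar collagens DSS minus untreated is 1.02 in KO and -0.06 in WT, and for fibroblast markers 0.51 and -0.34.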

How the data were processed

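Total RNA was labelled and hybridised to Affymetrix arrays, per the labels' protocols, and the deposited probe set values were read as log2, since as natural logs the brightest would pass a scanner's maximum. Summarization and normalization are not given in the sources used here, and the values were used as deposited. Of 45101 probe sets, 34945 had 1 gene symbol in the platform annotation, of which 34741 were updated by gene number through RefSeq (GRCm38.p6). A gene was its probe set with the highest mean, kept if above the array median on at least 1 array. Within a pair of arrays, log2 differences of at least 2-fold were counted, with no test. The additive effects were fitted over all 12177 genes with limma 3.58.1 in R 4.3.3 (lmFit, eBayes with trend, Benjamini-Hochberg), tested on simulated data. Precision is limited by having 4 arrays, and p-values reflect only how far effects differed between levels of the other factor. Members, classes and lists were chosen with earlier results of these data known. Values are given for all fibrillar and basement membrane genes kept and other collagens 2-fold apart in any comparison. They are also given for all genes of the cross-linking and propeptide lists, with up to 5 genes kept. Of longer matrix and fibroblast lists, values are given for the 4 with the largest size of the mean DSS difference over KO and WT, plus those behind counts of up to 5 genes. Other cell marker lists are mostly described by means. Alternatives covered normalization, filter, probe set, fold, covariate, trend and leaving out each array. Python 3.11.15 was used with pandas 2.3.3.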

Additional observations from a re-analysis of the deposited data

Results flagged for a closer look

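For 6 genes the effect of DSS had opposite signs in KO and WT, or that of genotype had opposite signs with and without DSS, and the effects were at least 2-fold apart. None of these differences was tested, since each group is 1 array. The difference of the DSS effect, KO minus WT, was 1.92 for Col5a2, 1.28 for Col3a1 and 1.11 for Col5a1, which were above 0 in KO and below 0 in WT. In WT, Col5a1 was at -0.06, and its 2 dimmer probe sets gave 0.14 and 0.46, so the opposite sign was not seen on them. The difference was -1.31 for Col4a6, which was below 0 in KO and above 0 in WT, while its dimmer probe set gave -0.32 in KO and -0.24 in WT. For Col4a1 and Col4a2, KO minus WT was above 0 with DSS and below 0 without, by 2.00 and 1.68 in all. The second probe set of Col4a1 gave 1.15 with DSS and -0.15 without, 1.30 in all. Each of these values includes the untreated KO array.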

How the results depend on the processing

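Under quantile normalization the genes at least 2-fold higher with DSS in KO numbered 5 in place of 8, with no other count of 2-fold differences over the 27 genes in the 4 pairwise comparisons moved by more than 1.5 times. By class, those higher with DSS in KO were then 2 fibrillar in place of 4 and 0 of other types in place of 1. With the untreated WT array in place of the untreated KO one, a choice added after the data were seen, they numbered 5, with 1 lower in place of 2 and a median of 0.50 in place of 0.14. That median was 1.02 with the 75th percentile filter, 0.69 with the mean over probe sets, 0.57 without probe sets ending in _x_at, _s_at or _a_at, and 1.30 with the second brightest probe set. That last set holds 13 genes, which had a median of 0.80 on their brightest probe set, and neither Col14a1 nor Col4a6, so its counts of lower genes with DSS lack them. The lower genes with DSS in KO then numbered 0, 0, 1 and 0, and those in WT 0, 0, 0 and 0 in place of 1. KO minus WT without DSS gave 0 higher genes in place of 1 and a median of -0.21 in place of 0.13 with the 75th percentile filter, and 1 lower in place of 0 with the second probe set. KO minus WT with DSS had a median of 0.47, which was 0.14 with no filter and 0.72 with the second probe set (0.58 on the brightest of the same 13 genes).
At 1.5-fold the counts were 2 lower with DSS in WT, 2 higher and 3 lower for KO minus WT without DSS, and 10 higher and 1 lower with it. At 3-fold they were 3 higher and 0 lower with DSS in KO, 0 and 0 in WT, and 0 higher for KO minus WT with and without DSS. The limma counts were 0 under every setting run, including those that leave out each array, which drop the covariate. They could hardly have moved, since none of the 12177 genes passed and the smallest adjusted p was 0.364 for DSS and 1.00 for genotype (limma). With 42 genes and no filter, dim genes pull medians towards 0, since the 15 added ones ranged by at most 0.69. No paired analysis was possible because each group has 1 array.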
